A study of Mus musculus with 44 samples.

Results

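Among 25697 probes, 148 measured RNAs whose input level in differentiating C2C12 muscle cells was higher on day 6 than on day 3, without a strong increase by day 3. They were selected on the input arrays alone. A probe qualified if it was detected (detection p-value under 0.05) on all 5 day 6 arrays, if its day 6 mean exceeded its day 3 mean by at least 0.5 on the log2 scale, and if its day 3 mean exceeded its day 0 mean by less than 1.5. Of the 10365 probes detected on all 5 day 6 arrays, 193 (1.86%) passed the late limit, and 45 of these were left out because they had already increased strongly by day 3. The input values below therefore describe the selection and carry no test. The pulldown arrays played no role in it, and all tests were made on them.

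C2C12 is an established mouse myoblast line, and the labels give no genetic change in any group. Lysates were incubated with beads carrying an antibody to AUF1 (AUF1 pulldown, 4, 3, 3 and 4 arrays on days 0, 2, 4 and 6) or control IgG (IgG pulldown, 4, 3, 4 and 4 arrays on those days). Input RNA, which did not pass over beads, was measured on 5 arrays each on days 0, 3 and 6. The titles of the input samples say DNA, but their molecule field and descriptions say RNA, and they were treated as RNA. Day 0 cells were growing, and the later cells had been moved to low-serum differentiation medium. Nothing in the labels says that arrays of a group came from separate cultures, so p-values measure only the spread between these arrays, which may be technical. Experiment numbers 1 to 4 in the column names are shared by AUF1, IgG and input arrays.

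When serum is lowered, C2C12 myoblasts leave the cell cycle, align and fuse into multinucleated myotubes. Myogenic transcription factors act early in this program, and many contractile and metabolic genes of muscle reach their highest expression late, as myotubes mature. AUF1, the product of Hnrnpd, recognises AU-rich elements in many mRNAs and affects their decay and translation. The pulldowns address which RNAs are bound by AUF1 as differentiation proceeds, and the IgG arrays measure what beads and a control antibody recover. No gene names could be given to the probes, which are described by identifier, and the myotube identity of the day 6 cells was not checked against marker genes. In RNA from whole cultures, a larger share of myotubes and more RNA per myotube cannot be told apart.

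Input arrays detected 44.7 to 48.7% of all probes, AUF1 arrays 24.4 to 45.5% and IgG arrays 25.6 to 46.8%. Detection was under 30% on 5 pulldown arrays. They were the AUF1 arrays of day 0 experiment 2, day 2 experiment 1, day 2 experiment 2 and day 4 experiment 3, and the IgG array of day 4 experiment 2. AUF1 day 2, a group used in several comparisons below, thus had 1 of its 3 arrays above this level. One input array also stood apart. On the day 0 array of experiment 4 the median of the 148 probes was 6.70, against 6.40 to 6.44 on the other 4 day 0 arrays, and 144 probes met the selection without it.

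In input RNA, the median of the 148 probes was 6.40 to 6.70 across the day 0 arrays, 7.07 to 7.19 across the day 3 arrays and 7.77 to 7.90 across the day 6 arrays. The probes detected in day 6 input as a whole stayed at 7.55 to 7.57. The day 6 minus day 3 difference ran from 0.50 to 2.05, with quartiles of 0.57 and 0.81 around a median of 0.66. It was under 0.75 for 95 probes and at least 1 for 19, so most of the set lay close to the limit. Each day 6 array held 143 to 146 of the 148 probes above their day 3 mean. Within experiments 1, 2, 3 and 4 the median day 6 minus day 3 difference was 0.65, 0.64, 0.71 and 0.76, while the median of all probes lay between -0.01 and 0. These are not all differences of single arrays. Day 3 arrays 37 and 40 both carry experiment number 2, day 6 arrays 41 and 44 both carry number 3, and such arrays were averaged. For 69 probes every day 6 array was above every day 3 array. Among the 10365 probes detected on all day 6 arrays this held for 1.76%, a share that the selection itself raises among the 148.

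**Figure D1:**
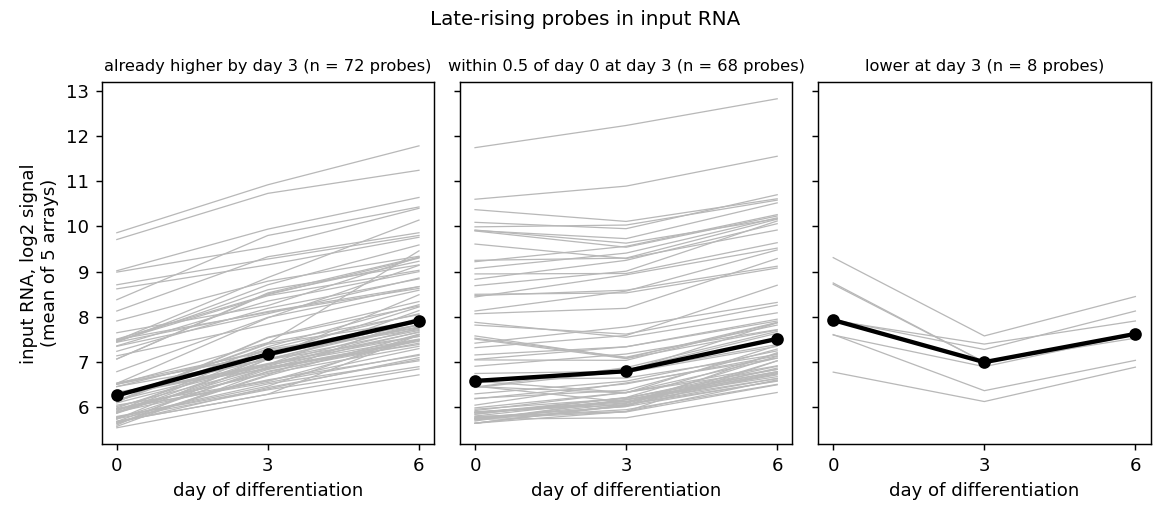
Input RNA levels of the 148 probes by day of differentiation (log2 signal, mean of 5 arrays per day), in 3 panels by their course up to day 3. Grey lines are single probes and the black line with points is the panel median. In the left panel (72 probes) the level was already higher on day 3, in the middle panel (68 probes) it was within 0.5 of day 0, and in the right panel (8 probes) it was lower on day 3 than on day 0.

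Most of these probes were already detected in growing cells, but a smaller share than of the comparison set. Day 0 input arrays detected 66.9 to 72.3% of the 148 probes, against 93.7 to 95.5% of the probes detected in day 6 input. On day 0, 87 of the 148 probes were detected on all 5 input arrays, 32 on 1 to 4 arrays and 29 on none. By day 3, 130 were detected on all 5 arrays and 1 on none. The plot of input courses sorts them by their difference from day 0 to day 3. In 72 probes this difference was over 0.5, and the median level was 6.26 on day 0, 7.17 on day 3 and 7.92 on day 6. In 68 probes it was within 0.5 either way, with medians of 6.58, 6.80 and 7.51 on the 3 days. The remaining 8 probes were lower on day 3 by more than 0.5, with medians of 7.93, 7.0 and 7.62. All 8 were detected on every day 0 array, and in 5 of them the day 6 mean was still below the day 0 mean. In these 5 the late increase was thus a partial return. The limit of 0.5 used for this division was set for description only.

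The widest late difference belonged to ILMN_2691641, with an input level of 6.15, 6.19, 6.07, 6.09 and 6.62 on day 0. On day 3 it read 6.20, 6.29, 7.65, 8.65 and 8.29, and on day 6 it read 8.06, 7.65, 10.16, 10.91 and 10.54. On day 6 the experiment 1 array and the experiment 2 array were more than 2 log2 units below the other 3. On day 3 the 2 lowest arrays were again from experiments 1 and 2, but array 40, also of experiment 2, read 7.65. Within experiments 1, 2, 3 and 4 the day 6 minus day 3 difference was 1.86, 0.68, 1.88 and 2.25. The day 6 and day 3 arrays overlapped, although the means differed by 2.05. ILMN_1237871 came next, with a difference of 1.40. It read 9.09, 8.96, 8.28, 7.95 and 8.18 on day 6, against 7.70, 7.30, 6.72, 7.05 and 6.73 on day 3, without overlap. At the limit, ILMN_1259678 was just inside, at 7.72 ± 0.21 on day 6 and 7.22 ± 0.09 on day 3 (SD, n = 5 each). ILMN_2939303 was just outside, at 7.93 ± 0.32 on day 6 and 7.43 ± 0.24 on day 3 (SD, n = 5 each). The limit separated these probes by a difference of 0.5021 against 0.4988, far less than the spread between arrays.

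On the pulldown arrays 39 of the 148 probes were detected on all 29 arrays and 5 on none. The filter for testing, detection on at least 3 pulldown arrays, was passed by 135 probes. The 13 others have no pulldown test. Of the 135, 11 had fewer than 3 detections outside day 6, so they entered through the day on which they were high. Counts and medians over the 135 are therefore a description.

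On average, the tested probes were higher on days 4 and 6 than on days 0 and 2 in both pulldowns. Input was higher on day 6 than on day 3, whereas the mean of the AUF1 array medians was 6.25 on day 4 and 6.05 on day 6. With IgG it was 6.10 and 6.12. With AUF1, the median of the 135 tested probes per array ran between 5.35 and 5.74 on day 0 and between 5.23 and 5.89 on day 2. It ran between 6.11 and 6.40 on day 4 and between 5.72 and 6.38 on day 6. With IgG it was 5.36 to 5.77, 5.62 to 5.75, 5.86 to 6.30 and 5.89 to 6.35 on the same days. In both pulldowns every day 4 array lay above every day 2 array, and the day 4 and day 6 arrays overlapped. The median of the 10035 tested probes detected in day 6 input stayed between 6.59 and 6.84 on all 29 arrays. The share of the 148 probes detected was 58.8 to 85.8% on AUF1 arrays and 73 to 89.2% on IgG arrays of day 6. On day 2 it was 39.9 to 57.4% on AUF1 arrays and 64.9 to 67.6% on IgG arrays. Detection of all probes also varied between these arrays (33.3 to 45.5% with AUF1 on day 6 and 24.4 to 35.5% with AUF1 on day 2), and its part in these shares was not tested.

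**Figure D2:**
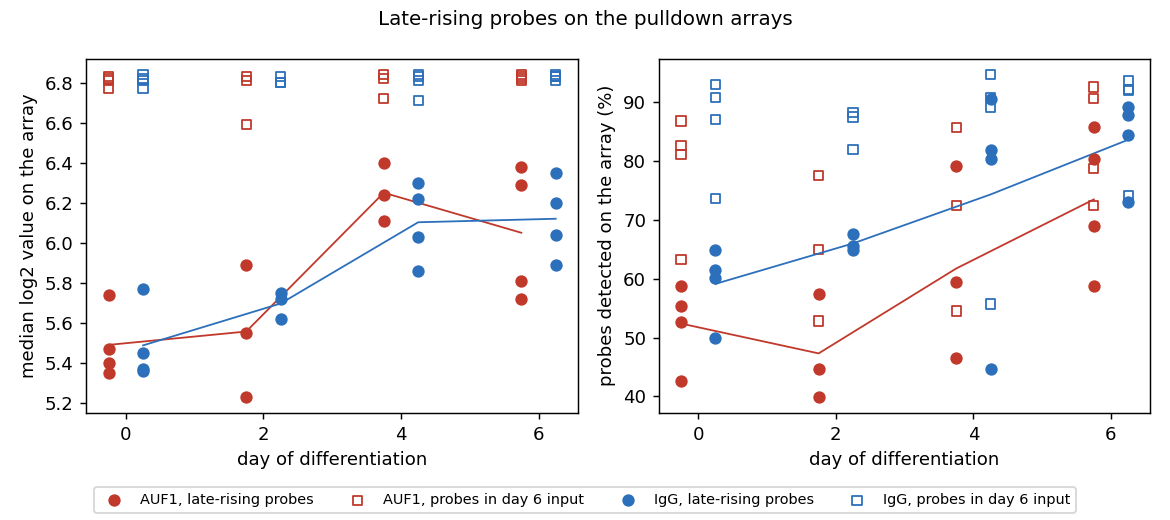
Left, median log2 value per pulldown array (neqc values) and right, percentage of probes detected per array, by day of differentiation, with AUF1 arrays in red to the left of IgG arrays in blue. Filled circles are the late-rising probes (the 135 tested on the left, all 148 on the right), with lines through their group means. Open squares are the probes detected in day 6 input, which include them (10035 tested on the left, 10365 on the right). In the left panel all circles of day 4 lie above those of day 2 in both pulldowns, and the squares stay between 6.59 and 6.84.

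Between day 2 and day 6, more of these probes rose than fell in AUF1 pulldown. By limma, 15 of the 135 tested probes rose and 3 fell. Among these called probes, 1 had fewer than 3 detections outside day 6 and so entered the test through its day 6 arrays. Over all 13812 tested probes, 2.56% rose and 2.04% fell, and over the 10035 tested probes detected in day 6 input, 3.28% rose and 2.10% fell. The median change was 0.29, against 0.09 for all tested probes, and 89 of the 135 (65.9%) were above 0, against 57.3% of all tested probes. In the experiments with arrays of both days (1, 2 and 4) the median change of the 135 was 0.23, 0.20 and 0.44. Scaling arrays by their median in place of quantile normalization moved the median of all tested probes to 0.69 and that of the 135 to 0.90, and then 23 rose and 0 fell, while 990 of all 13812 tested probes rose and 7 fell. The count moved with the arrays and the fit. It was 33 with array weights, where 861 of all 13812 tested probes rose and 942 fell. With the experiment number as a block it was 38, where 1152 of all tested probes rose and 991 fell. It was 11 without the AUF1 day 6 array of experiment 4, where 204 of 13744 tested probes rose and 133 fell. Without the arrays under 30% detected, which leaves 1 AUF1 day 2 array, 1 probe was called. Without the AUF1 day 2 array of experiment 2 alone, 5 were called, where 78 of 13778 tested probes rose and 69 fell. Without that of experiment 1 alone, 8 were called, where 154 of 13768 rose and 124 fell.

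ILMN_2599739 had the largest fitted change among the called rises, but only 1 of the 3 AUF1 day 2 arrays detected it, so the size is uncertain. With AUF1 it read 6.47, 6.62, 6.74 and 6.94 on day 6, against 4.53, 4.24 and 5.31 on day 2, so that every day 6 array was above every day 2 array. The change was 2.00 ± 0.37 (log2, SE; limma adjusted p = 0.00426) and was 1.94, 2.38 and 1.63 within experiments 1, 2 and 4. With IgG the same probe read 5.96, 5.76, 6.60 and 6.69 on day 6, against 5.84, 5.35 and 5.79 on day 2. Those groups overlapped, and the change of 0.59 ± 0.37 did not pass the test (adjusted p = 1). Without background correction the AUF1 change was 1.09 (adjusted p = 0.00327). Its AUF1 call was lost without the arrays under 30% detected (1.46, adjusted p = 0.188), and in that fit 2 of the 3 AUF1 day 2 arrays were missing.

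ILMN_1224637 rose with both antibodies. With AUF1 it read 5.94, 6.14, 6.57 and 6.70 on day 6, against 4.62, 4.37 and 4.39 on day 2, where no array detected it. The change was 1.88 ± 0.28 (limma adjusted p = 0.000964), and counted from the detection floor it was at least 1.64-fold higher on day 6. With IgG it read 6.04, 5.80, 6.22 and 7.07 on day 6, against 5.09, 4.52 and 4.47 on day 2, a change of 1.59 ± 0.28 (adjusted p = 0.0247). Neither pulldown's day 6 arrays overlapped its day 2 arrays. Its input level was 7.75 ± 0.35 on day 6 and 6.91 ± 0.58 on day 3 (SD, n = 5 each). The AUF1 call held under all 14 alternatives, with changes of 0.95 to 2.11 and adjusted p of 0.000257 to 0.0456.

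The probes that fell with AUF1 between day 2 and day 6 had been selected for an input increase between day 3 and day 6. Input was not measured on day 2, so the 2 spans differ and their directions cannot be set against each other directly. ILMN_2951691 read 7.30, 7.89, 8.08 and 7.24 with AUF1 on day 6, against 9.41, 10.70 and 9.15 on day 2, a change of -2.13 ± 0.43 (limma adjusted p = 0.00735). ILMN_2729958 read 7.0, 7.71, 7.59 and 6.47 on day 6, against 8.94, 10.18 and 8.84 on day 2, also a change of -2.13, with an SE of 0.42 (adjusted p = 0.00677). On these normalized values the AUF1 day 6 and day 2 arrays did not overlap for either probe. The signals before normalization did overlap. Those of ILMN_2951691 were 291.5, 156.6, 244.2 and 218 on day 6, against 230.1, 293.4 and 280 on day 2. Those of ILMN_2729958 were 248.1, 143.6, 179.1 and 144.6 on day 6, against 174.7, 206.8 and 228.9 on day 2. Both belong to the 8 probes that were lower in input on day 3 than on day 0. ILMN_2951691 had input means of 9.31 on day 0, 7.58 on day 3 and 8.45 on day 6, and ILMN_2729958 had 8.72, 7.0 and 7.53. On the AUF1 arrays their means were 10 and 9.54 on day 0 and still high on day 4 (9.10 and 8.66). With IgG the day 6 minus day 2 changes were -0.40 ± 0.43 and -0.39 ± 0.42, neither past the test (adjusted p = 1 for each). Under median scaling the AUF1 changes were -0.63 (adjusted p = 0.345) and -0.58 (adjusted p = 0.412), and without the AUF1 day 2 array of experiment 2 they were -1.66 (adjusted p = 0.0713) and -1.70 (adjusted p = 0.065). The third probe that fell, ILMN_2751948 (-1.94), had a rising input course and is named after its values were seen, as is ILMN_1253304, the 1 probe of the 8 that rose with AUF1 (0.90).

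In IgG pulldown most of these probes were also above 0. Between day 2 and day 6, 2 of the 135 probes rose and 0 fell, where 0.0507% of all tested probes rose and 0% fell. They are 2 of the 7 probes called in this comparison over the whole array. With array weights the count was 33 with AUF1 and 38 with IgG, so the order of the counts was not stable. The IgG count with array weights has no share over all tested probes beside it. It describes stability alone and no trait of the late-rising probes. The median change of the 135 was 0.31, against 0.01 for all tested probes, and 111 (82.2%) were above 0, against 51.6% of all tested probes. Within experiments 1, 2 and 4 the median was 0.34, 0.31 and 0.31. An unadjusted p under 0.05 was reached by 28 of the 135 (20.7%), against 5.05% of all tested probes.

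Besides ILMN_1224637, the probe called with IgG was ILMN_2621433. With IgG it read 8.53, 8.57, 9.42 and 9.42 on day 6, against 7.27, 7.40 and 7.24 on day 2, a change of 1.68 ± 0.32 (limma adjusted p = 0.0492). With AUF1 it read 8.48, 8.31, 8.93 and 9.42 on day 6, against 7.48, 7.51 and 7.61 on day 2. Its day 6 arrays were above its day 2 arrays in each pulldown. In input it averaged 7.45 ± 0.33 on day 0, 8.71 ± 0.23 on day 3 and 9.59 ± 0.17 on day 6 (SD, n = 5 each). Both IgG calls depended on single arrays. Leaving out any 1 of the 3 IgG day 2 arrays, or the IgG day 6 array of experiment 3 or 4, left 0 of the 135 called, with the change of ILMN_2621433 between 1.52 and 1.73.

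The late changes with the 2 antibodies went together. Of the 135 probes, 80 were above 0 with both, 15 below 0 with both, 9 above 0 with AUF1 alone and 31 above 0 with IgG alone. All 15 probes that rose with AUF1 were above 0 with IgG, and all 3 that fell were below 0 with IgG. Across the 135 probes the AUF1 and IgG changes correlated at r = 0.62, and across all 13812 tested probes at r = 0.40. These are correlations across probes, which are not independent replicates and share the arrays. The size of the late difference in input correlated at r = -0.03 with the AUF1 change and at r = 0.22 with the IgG change. The difference between the AUF1 and IgG changes, tested as an interaction in limma, was called for 0 of the 135 probes and for 0% of all tested probes in either direction. An unadjusted limma p under 0.05 was reached by 7 of the 135 (5.19%), against 6.33% of all tested probes. The count of called probes lay between 0 and 2 under 21 alternatives. The median interaction was -0.06 for the 135 and 0.06 for all tested probes. For ILMN_2599739 it was 1.41 ± 0.53 (adjusted p = 0.769), and for ILMN_2951691 and ILMN_2729958 it was -1.73 ± 0.60 and -1.73 ± 0.59 (adjusted p = 0.769 for both).

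**Figure D3:**
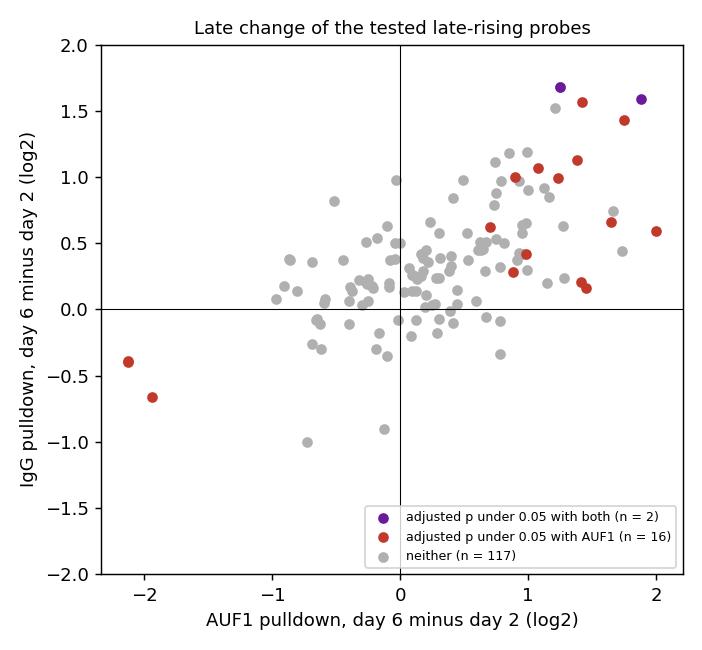
Day 6 minus day 2 change (log2) of the 135 tested late-rising probes in AUF1 pulldown (horizontal axis) and IgG pulldown (vertical axis), 1 point per probe. Purple points are the 2 probes with adjusted p under 0.05 with both antibodies, red points the 16 with AUF1 alone and grey points the other 117. The upper right quadrant holds 80 probes, and the 3 red points at the lower left are the probes that fell with AUF1.

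Earlier, between day 0 and day 2, few of these probes were called. With AUF1, 1 of the 135 (0.741%) rose and 0 fell, where 0.941% of all tested probes rose and 0.775% fell. The count was thus near the share over all tested probes. An unadjusted limma p under 0.05 was reached by 24 of the 135 (17.8%), against 13.9% of all tested probes. The median change was 0.01, against -0.06 for all tested probes. The called probe was ILMN_1218223. With AUF1 it read 7.52, 8.15 and 6.59 on day 2, against 4.74, 4.57, 4.64 and 4.56 on day 0, where no array detected it. The change of 2.79 ± 0.65 (limma adjusted p = 0.0244) is at least 5.18-fold on the background-corrected, quantile-normalized scale. Without background correction it was 1.56 (adjusted p = 0.102) and under median scaling 1.11 (adjusted p = 0.467), both below that bound. On day 4 it read 7.59, 9.52 and 9.88, and on day 6 it read 5.62, 5.87, 7.80 and 8.30. Its AUF1 course was thus highest on day 4, and on day 6 experiments 1 and 2 were below 6 and experiments 3 and 4 above 7. With IgG it read 6.45, 5.41 and 6.51 on day 2, against 4.65, 4.83, 4.67 and 4.53 on day 0. In input it was detected on 1 of 5 arrays on day 0, on 4 on day 3 and on 5 on day 6. Its AUF1 call was lost under 8 of 14 alternatives, without the AUF1 day 2 array of experiment 2 among them (2.46, adjusted p = 0.179).

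With IgG, 0 of the 135 changed between day 0 and day 2 in limma, where 0.652% of all tested probes rose and 0.203% fell. An unadjusted limma p under 0.05 was reached by 17 of the 135 (12.6%), against 7.24% of all tested probes. The count of called probes lay between 0 and 16 under 14 alternatives. With same-numbered experiments as pairs, 3 rose and 1 fell, where 1.62% and 0.717% of all tested probes did. The median change was 0.12, against -0.01 for all tested probes.

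How many of these probes differed between the antibodies depended on whether same-numbered arrays were paired. On day 0, 0 of the 135 probes differed in limma, where 0% of all tested probes were higher and 0.145% lower with AUF1. An unadjusted limma p under 0.05 was reached by 15 of the 135 (11.1%), against 12.4% of all tested probes. With the arrays paired by experiment, 15 were higher and 1 lower with AUF1, where 6.49% and 6.28% of all tested probes were. On day 2, 2 were higher and 1 lower with AUF1, where 0.579% and 1.55% of all tested probes were. The paired counts on day 2 were 18 higher and 13 lower, with 11.4% and 14.7% of all tested probes. On day 4, 0 of the 135 differed in limma, where 0.275% of all tested probes were higher and 0.413% lower. The count lay between 0 and 35 under 14 alternatives. It was 35 with the experiment block, which called 12.3% of all tested probes each way. An unadjusted limma p under 0.05 was reached by 33 of the 135 (24.4%), against 18.3% of all tested probes. On day 6, 0 of the 135 differed in limma, and 0% of all tested probes did in either direction. The day 6 count was also 0 under all 15 alternatives. An unadjusted limma p under 0.05 was reached on day 6 by 2 of the 135 (1.48%), against 0.956% of all tested probes. The median AUF1 minus IgG difference of the 135 was 0.03, -0.05, -0.02 and -0.10 on days 0, 2, 4 and 6, and that of all tested probes was 0.00, -0.07, -0.05 and 0.01. On day 6, 50 of the 135 (37.0%) were above 0, against 51.4% of all tested probes. Within experiments 1, 2, 3 and 4 the day 6 median was -0.09, -0.26, 0.00 and 0.03, so the lower values came from experiments 1 and 2.

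**Figure D4:**
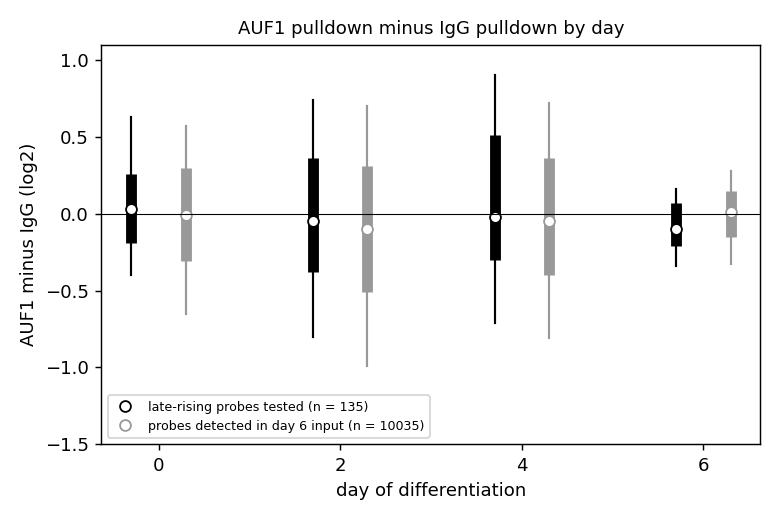
AUF1 minus IgG difference (log2) by day of differentiation for the 135 tested late-rising probes (black) and the 10035 tested probes detected in day 6 input (grey), which include them. Circles are medians, thick bars the middle quartiles and thin lines the range from the 10th to the 90th percentile over probes. All medians lie between -0.10 and 0.03, and both sets spread least on day 6.

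The 2 probes higher with AUF1 on day 2 were ILMN_2729958 and ILMN_2951691, the same that fell with AUF1 by day 6. ILMN_2729958 read 8.94, 10.18 and 8.84 with AUF1, against 6.86, 7.44 and 8.05 with IgG, a difference of 1.87 ± 0.45 (limma adjusted p = 0.0316). ILMN_2951691 read 9.41, 10.70 and 9.15 with AUF1, against 7.62, 8.15 and 8.40 with IgG, a difference of 1.70 ± 0.46 (adjusted p = 0.0493). On each probe every AUF1 array was above every IgG array on these normalized values, but the signals before normalization overlapped. For ILMN_2729958 they were 174.7, 206.8 and 228.9 with AUF1, against 199.9, 175 and 294.8 with IgG. For ILMN_2951691 they were 230.1, 293.4 and 280 with AUF1, against 315.1, 275 and 360.6 with IgG. On day 0 the differences were of like direction, 1.19 for ILMN_2729958 (limma adjusted p = 0.179) and 1.22 for ILMN_2951691 (adjusted p = 0.173), both without pairing. Within experiments 1, 2, 3 and 4 the day 0 difference was 2.05, 0.7, 1.02 and 0.98 for ILMN_2729958. For ILMN_2951691 it was 2.37, 0.66, 0.97 and 0.87. On day 6 ILMN_2951691 differed by -0.03 ± 0.40 (adjusted p = 1). Under median scaling, which moved the median of all tested probes on day 2 to -0.82, the day 2 differences were 0.11 and -0.03. In that setting 0 of the 135 probes were called higher and 18 lower with AUF1. These counts have no share over all tested probes beside them, so they describe stability alone and no trait of the late-rising probes.

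The probe lower with AUF1 on day 2 was ILMN_2620799. No AUF1 day 2 array detected it (4.41, 4.30 and 4.43), while with IgG it read 6.05, 6.37 and 5.37, a difference of -1.55 ± 0.30 (limma adjusted p = 0.0145). Counted from the detection floor, it was at least 1.24-fold lower with AUF1. By day 6 it read 5.54, 5.75, 6.05 and 6.00 with AUF1, against 5.99, 5.77, 6.63 and 5.96 with IgG, and the groups overlapped. It is among the 15 probes that rose with AUF1 between day 2 and day 6 (1.45, at least 1.16-fold). The 3 calls on day 2 rest on the day 2 arrays. Without the arrays under 30% detected 0 remained, and 0 did so without the AUF1 array of experiment 2, the IgG array of experiment 1 or the IgG array of experiment 2.

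**Figure D5:**
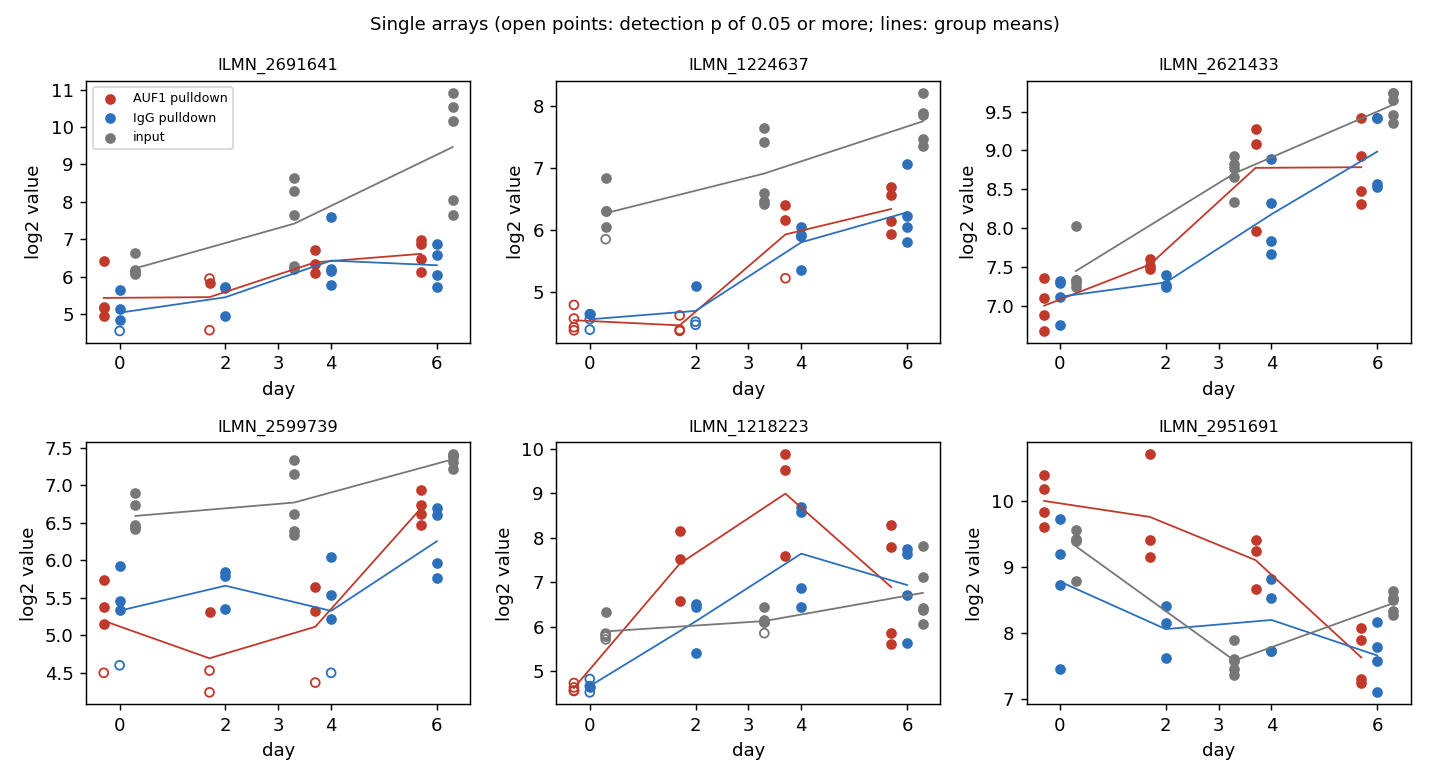
Log2 value on each array for 6 late-rising probes by day, with AUF1 pulldown in red to the left, IgG pulldown in blue and input in grey to the right. Open points have a detection p-value of 0.05 or more, and lines join group means. Input and pulldown values were normalized separately, so only their courses can be compared. ILMN_1224637 and ILMN_2621433 are higher on day 6 than on day 2 in both pulldowns, while ILMN_2951691 is lower on day 6 with AUF1.

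The 45 probes left out for their strong earlier increase are the nearest set for comparison, and all 45 were tested. Between day 2 and day 6 their median change was 0.59 with AUF1 (7 rose) and 0.76 with IgG (2 rose). Over all tested probes, 2.56% rose with AUF1 and 0.0507% with IgG. Between day 0 and day 2, 10 of the 45 rose with AUF1 (median 0.53) and 8 with IgG (median 0.68), beside 1 and 0 of the 135 late-rising probes. Over all tested probes, 0.941% and 0.652% rose. The 2 sets were divided by their input difference from day 0 to day 3. A stronger early increase in the 45 is thus what the selection chose in input, and these counts are a description. Across the 135, the input difference from day 0 to day 3 correlated at r = 0.46 with the IgG change from day 0 to day 2 and at r = 0.29 with the AUF1 change, across probes. The difference between the 2 sets was not tested.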

How the data were processed

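Per the file headers, the deposited table gives 25697 probes on 44 bead arrays, each with a non-normalized signal intensity and a p-value of detection. The submitters' processing notes name GenomeStudio 1.6.0, with background handling not given in the sources used here. Groups, experiment numbers and array numbers come from the column names, which do not say which sample of a group a column holds. Probes carry Illumina identifiers alone, and 0 of them occur in the gene table at hand. Planned gene lists, myotube markers and markers of other cell types were therefore not analysed here, and no probe sequence was used here.

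Input arrays were quantile normalized on the log2 scale without background correction, and the probes were selected on those values. Pulldown arrays were processed with neqc of limma 3.58.1 in R 4.3.3 (normal-exponential background correction, offset 16, quantile normalization, log2). Levels are therefore not comparable between input and pulldown arrays. Testing required detection (p-value under 0.05) on 3 or more pulldown arrays, which 13812 probes met. One model with a mean per antibody and day was fitted over the 29 pulldown arrays (lmFit, eBayes), and p-values were adjusted over the 13812 probes by the Benjamini-Hochberg method. Calls are at adjusted p under 0.05. The code was tested on simulated data. Quantile normalization gives every array 1 distribution, so a change is relative to the remaining probes. Where no array of the dimmer group detected a probe, the fold is a bound computed against each array's lowest detected value, or against the probe itself where that is higher.

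Same-numbered experiments were checked as pairs by correlating deviations from group means. All correlations were over 0.1 for IgG day 2 against day 0 (0.54 to 0.72) and for AUF1 against IgG on day 0 (0.26 to 0.77), day 2 (0.11 to 0.48) and day 6 (0.16 to 0.84), and these arrays were taken as pairs. The main design has no pairs, so the blocked counts are given beside it.

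Probes named are the 2 highest by input change, the 2 nearest the selection limit on either side, and up to 2 called highest and 2 called lowest in each pulldown comparison. Other probes named were chosen after their values were seen, as stated beside them. Alternatives changed background correction, scaling, the detection filter, variance moderation, array weights, the experiment block and the arrays included. The members, lists and tests were chosen with earlier results of these data known.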

Additional observations from a re-analysis of the deposited data

Results flagged for a closer look

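Of 104 groups of arrays checked (the median and detected share of the late-rising probes, and each named probe), 8 held 1 array farther from the others than Dixon's 95% limit allows, and chance gives about 1 in 20. Of the 8, 6 concern the input day 0 array of experiment 4. On it the median of the 148 probes was 6.70, against 6.40 to 6.44 on the other 4 arrays. ILMN_2691641 read 6.62, against 6.07 to 6.19. ILMN_1218223 read 6.33, against 5.72 to 5.85, and ILMN_2621433 read 8.03, against 7.24 to 7.34. In contrast, 2 probes with a fall in input up to day 3 were low on it. ILMN_2951691 read 8.79, against 9.39 to 9.55, and ILMN_2729958 read 8.04, against 8.76 to 9.03. For these 5 probes the array differed from the others in the direction of the day 3 level, while ILMN_2620799, which was not flagged, read 5.87 on it, against 6.16 to 6.37, and averaged 6.52 on day 3. These probes share the array and are not separate evidence, and the cause was not tested.

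The other flagged arrays were from pulldowns. ILMN_2691641 read 6.41 on the AUF1 day 0 array of experiment 2, against 4.96 to 5.19 on the other 3, and that array detected 28.6% of all probes. ILMN_2729958 read 6.45 on the IgG day 6 array of experiment 4, against 7.18 to 7.30 on the other 3.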

How the results depend on the processing

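The number of late-rising probes was 148 as selected, 255 with background-corrected values (124 shared), 53 with a late limit of 0.75, and 143 to 185 when 1 input array was left out, highest without the day 3 array numbered 37. Of the 148, 74 were selected without each of the 15 arrays in turn. The counts of called probes moved as follows, and the causes were not tested. Where no count over all tested probes is given beside them, they describe stability alone and no trait of the late-rising probes. For AUF1 day 6 against day 2 (18), array weights gave 33 and leaving out the arrays under 30% detected gave 1, with fewer arrays. Leaving out 1 array gave 5 to 17, with 8 without the AUF1 day 2 array of experiment 1, 5 without that of experiment 2 and 11 without the AUF1 day 6 array of experiment 4. For AUF1 day 2 against day 0 (1), no background correction, median scaling and leaving out the arrays under 30% detected each gave 0, array weights 13, and leaving out 1 array 0 to 5. It was 0 without the AUF1 day 0 array of experiment 1 or 4 or the AUF1 day 2 array of experiment 1 or 2, and 5 without the AUF1 day 0 array of experiment 2 or the AUF1 day 2 array of experiment 4. With array weights, 625 of all 13812 tested probes rose and 572 fell in this comparison. For IgG day 6 against day 2 (2), no background correction gave 0, median scaling 1, no detection filter 1, array weights 38 and leaving out 1 array 0 to 2. For IgG day 2 against day 0 (0), array weights gave 16, leaving out the arrays under 30% detected 3, and leaving out 1 array 0 to 1, with 1 without the IgG day 2 array of experiment 4. The interaction (0) was 2 with array weights. For AUF1 against IgG, array weights gave 10 on day 0 (0), 15 on day 2 (3) and 21 on day 4 (0), and median scaling gave 18 on day 2 and 10 on day 4. On day 2, leaving out the arrays under 30% detected gave 0 and leaving out 1 array 0 to 5, with 1 without the AUF1 array of experiment 1 and 5 without the IgG array of experiment 4. On day 4 leaving out 1 array gave 0 to 2, with 2 without the IgG array of experiment 2. The day 2 difference of ILMN_2951691 reversed to -0.03 under median scaling.

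A replicate block of experiment numbers gave 38 called probes for AUF1 day 6 against day 2, 11 for AUF1 day 2 against day 0, 4 for IgG day 6 against day 2, 4 for IgG day 2 against day 0, 0 for the interaction, and 16, 31, 35 and 0 for AUF1 against IgG on days 0, 2, 4 and 6. Over all tested probes the block called 8.34% higher and 7.17% lower for AUF1 day 6 against day 2, 2.83% and 2.88% for AUF1 day 2 against day 0, 0.21% and 0.0579% for IgG day 6 against day 2, and 12.3% each way for AUF1 against IgG on day 4. The pairing correlations went down to -0.10 for AUF1 day 6 against day 2, 0.09 for AUF1 day 2 against day 0, -0.14 for IgG day 6 against day 2 and -0.09 for day 4, so the numbers were not taken as pairs there. With 3 or 4 arrays per group and several AUF1 arrays near background, a fitted change of a dim probe is not an exact fold.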
